A study of Homo sapiens with 6 samples.

Results

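The genes described are 43 components of the contractile cytoskeleton, out of 58336 gene IDs in each table: muscle actins, actin crosslinkers, calponins and transgelins, tropomyosins and other thin filament proteins, myosin chains and their kinase, adhesion plaque proteins, LIM-domain proteins, and the transcription factor SRF with its coactivators. They were taken as a fixed list of gene symbols, and all 43 were found in the tables. The RNA came from clones of the KGN line, of human granulosa tumour origin, which carries 1 wild-type and 1 C134W copy of the forkhead factor FOXL2. In the FOXL2 WT/WT libraries, named 44a, 4.72 and 4.72-44a, CRISPR/Cas9 had been used to revert the mutation. The FOXL2 WT/C134W libraries, named 3.11, 44b and 3.11-44b, kept it, and the labels record no editing for them. All cells were KGN in serum-containing medium, and RNA was taken 30 h after transfection, of what is not stated. In each genotype the last name joins the names of the other 2, and what these joined libraries are is not stated, so the comparisons use the 2 libraries of single name (called clones here) and give the joined ones beside them. P-values measure the spread between these clones alone. In RNA from whole cultures, fewer cells that express a gene and less RNA per cell cannot be told apart.

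Contractile force in non-muscle and smooth muscle cells comes from myosin II filaments that slide actin filaments past each other, after phosphorylation of the regulatory light chain by myosin light chain kinase. Tropomyosin, caldesmon and calponin bind along the actin filament, alpha-actinin and filamin crosslink it, and vinculin, talin and zyxin tie it to integrins. Many of these genes are transcribed by serum response factor (SRF), which binds CArG boxes and is driven by the coactivators MRTFA and MRTFB when monomeric actin runs low, or by myocardin (MYOCD) in muscle. ACTA2, TAGLN and CNN1 are classical markers of smooth muscle and of myofibroblasts.

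Because SRF is the known regulator of this programme, the RefSeq promoters of the genes (GRCh38.p14, windows of 300 bases that reach from upstream to just past a transcript start) were searched for CArG boxes, here CC and GG around 6 bases that are each A or T. The motif is its own reverse complement in this form, so both strands were covered. Of the 39 genes with a promoter in the table, 13 held a CArG box, against 1.59% of tested genes and 1.29% of all 35116 promoters. Genes of this list have up to several promoters each, and by promoter the count was 15 of 89. The list was drawn up with SRF targets in mind, so a high share is in part a property of the choice. Another 5 genes, ACTA2 among them, held only near matches in which 1 of the 6 central bases is C or G, and a near match of this form was found in 8.46% of tested genes. TAGLN, MYL9, MYH11 and MYOCD had no promoter in the table. The 6 promoters below are shown because they belong to both smooth muscle actins (ACTA2, ACTG2), to a crosslinker and a calponin with lower values in the mutant clones (FLNA, CNN2), to SRF itself, and to SMTN, which had higher values. Each is printed 5′ to 3′ on the gene's strand, with CArG boxes or, for ACTA2, the near matches in capitals.
ACTA2 (chr10:88952724-88953023, minus strand): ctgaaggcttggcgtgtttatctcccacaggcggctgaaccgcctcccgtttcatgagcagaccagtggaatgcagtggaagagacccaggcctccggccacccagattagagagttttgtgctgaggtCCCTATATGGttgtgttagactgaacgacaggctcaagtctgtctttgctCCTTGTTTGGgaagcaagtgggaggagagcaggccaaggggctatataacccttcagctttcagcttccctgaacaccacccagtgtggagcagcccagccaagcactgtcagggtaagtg
ACTG2 (chr2:73892758-73893057, plus strand): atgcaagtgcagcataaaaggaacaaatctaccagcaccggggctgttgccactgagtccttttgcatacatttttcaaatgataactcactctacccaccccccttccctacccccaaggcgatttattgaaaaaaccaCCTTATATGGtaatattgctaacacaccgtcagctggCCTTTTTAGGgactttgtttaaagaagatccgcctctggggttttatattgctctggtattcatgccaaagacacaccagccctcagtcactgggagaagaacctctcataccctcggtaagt
FLNA (chrX:154374585-154374884, minus strand): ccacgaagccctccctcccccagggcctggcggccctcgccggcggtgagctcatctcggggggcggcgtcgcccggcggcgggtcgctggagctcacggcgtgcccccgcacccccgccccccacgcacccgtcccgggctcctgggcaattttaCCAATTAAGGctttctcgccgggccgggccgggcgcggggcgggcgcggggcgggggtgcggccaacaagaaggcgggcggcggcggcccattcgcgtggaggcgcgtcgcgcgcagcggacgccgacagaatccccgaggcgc
CNN2 (chr19:1026358-1026657, plus strand): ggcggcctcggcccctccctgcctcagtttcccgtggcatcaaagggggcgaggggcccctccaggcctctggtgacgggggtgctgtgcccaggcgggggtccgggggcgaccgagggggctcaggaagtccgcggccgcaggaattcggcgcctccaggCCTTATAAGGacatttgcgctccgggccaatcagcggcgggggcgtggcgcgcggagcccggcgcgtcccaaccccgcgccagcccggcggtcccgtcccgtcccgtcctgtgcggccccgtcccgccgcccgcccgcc
SRF (chr6:43171019-43171318, plus strand): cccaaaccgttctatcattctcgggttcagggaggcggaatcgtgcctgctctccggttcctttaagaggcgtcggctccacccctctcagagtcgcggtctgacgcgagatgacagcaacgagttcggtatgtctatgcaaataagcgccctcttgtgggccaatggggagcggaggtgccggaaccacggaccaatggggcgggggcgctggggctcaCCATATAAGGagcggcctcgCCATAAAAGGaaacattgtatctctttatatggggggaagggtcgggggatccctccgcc
SMTN (chr22:31084746-31085045, plus strand): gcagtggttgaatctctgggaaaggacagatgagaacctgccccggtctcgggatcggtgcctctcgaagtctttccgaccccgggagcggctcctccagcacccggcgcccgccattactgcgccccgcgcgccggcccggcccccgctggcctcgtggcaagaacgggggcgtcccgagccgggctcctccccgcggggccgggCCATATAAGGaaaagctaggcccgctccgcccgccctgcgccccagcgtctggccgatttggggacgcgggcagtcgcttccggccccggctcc
The ACTA2 start shown lies downstream of another one whose promoter held no match. A match is a description of the letters and not evidence of binding. Equally, a near match or no match does not show that SRF sites are lacking, and sequence outside these windows was not searched. The 13 genes with a CArG box had a median log2 fold change (mutant WT/C134W relative to WT/WT) of -0.71, and 12 of them had a negative value. For the 25 tested genes whose promoters held no CArG box, those with near matches included, the median was -0.65 and 22 values were negative. Both mutant clones lay below both WT/WT clones in 8 of the 13 genes and in 19 of the 25, against 19.7% of all genes. SMTN carries a box, CCATATAAGG, that SRF also carries, and their fold changes had opposite signs. The SMTN start shown lies inside the gene, which begins at 31064105, and fold changes were not split by start.

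Summed expected counts ran from 35332727 to 46613068 per library, and levels are given as CPM, counts relative to the library total after TMM scaling over the 6 libraries. Where 2 values stand against 2, they are those of 44a and 4.72 against 3.11 and 44b, and joined libraries are given with WT/WT first. Transcripts of the 43 genes took 3.74% and 4.42% of all TPM (a scale normalised for transcript length and library) in 44a and 4.72, against 1.99% and 2.94% in 3.11 and 44b. The joined libraries held 4.1% (WT/WT) and 2.62% (WT/C134W). Markers of granulosa cells were only in part detected: NR5A1 stood at 34.0 to 50.1 CPM, AMH at 18.3 to 36.6 CPM and FOXL2 at 4.34 to 10.1 CPM. INHBB stood at 6.39 to 21.9 CPM and HSD17B1 at 1.33 to 5.88 CPM. INHA reached at most 0.308 CPM and CYP19A1 0.287 CPM, while FSHR, AMHR2 and WT1 had 0 counts in all 6 libraries. Of the 6 granulosa markers tested, 2 (NR5A1 and INHBB) were lower in both WT/C134W clones and 1 (FOXL2) higher, against 19.7% and 19.9% of all genes. Of 13 striated muscle markers 9 had 0 counts throughout, and the list summed to 3.87 to 7.36 CPM, mostly TTN (3.39 to 6.26 CPM). Of 6 leukocyte markers 4 had 0 counts, and the list summed to 64.3 to 75.2 CPM, mostly CD68 (63.8 to 73.7 CPM). Markers of vascular mural cells were present, with summed levels of 1484 and 2088 CPM in the WT/WT clones and 866 and 1077 CPM in the WT/C134W clones. These came from PDGFRB, MCAM, CSPG4, NOTCH3 and RGS5, while KCNJ8, ABCC9 and PLN had 0 counts and KCNMB1 at most 0.159 CPM. NOTCH3 had 100.7 and 28.7 CPM in the WT/WT clones and 0.919 and 13.9 CPM in the WT/C134W clones. Of the 5 markers tested, 4 were lower in both WT/C134W clones (19.7% of all genes were). RGS5 overlapped, with 19.01 and 30.45 CPM against 26.2 and 13.92 CPM. The summed level of this marker list thus moved with that of the contractile genes, and its part in the result was not tested. Epithelial markers, mostly KRT18, summed to 1048 and 1481 CPM against 377 and 1233 CPM, which overlap, and endothelial markers to between 2.22 and 14.9 CPM.

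Of the 43 genes, 41 passed the low-count filter and were tested. CNN1, the smooth muscle calponin, and MYOCD, the muscle coactivator of SRF, had 0 counts in every library, which allows at most 3 counts, between 0.0661 and 0.0783 CPM (counting error only). None of the 41 was called between genotypes: 0 passed a Benjamini-Hochberg adjusted p of 0.05 in edgeR's quasi-likelihood test over all 16416 genes tested, of which 0% were called. Their smallest adjusted p was 0.439 (CRIP2). The values leaned one way nonetheless. Of the 41, 36 (87.8%) had a negative log2 fold change, against 49.4% of all genes tested, and their median was -0.67, against 0.01 for all genes. In 29 genes (70.7%) both WT/C134W clones lay below both WT/WT clones, against 19.7% of all genes, and in 2 genes, SMTN and MRTFB, both lay above, against 19.9%. With library totals as the only scaling this split was 25 lower and 5 higher. The matching shares of all genes were not counted. The typical gene had a log2 fold change of 0.23 under that scaling, so 19.7% and 19.9% are no reference for it. On the TPM scale the split was 25 lower and 4 higher (TPM3, SMTN, MYH11 and MRTFA), against 11.3% and 30.6% of all genes. MYH10, SYNPO2, PDLIM5 and FHL2, lower in CPM, overlapped there. At an unadjusted p below 0.05 stood 21 genes with lower values (4.7% of all genes) and 0 with higher ones (2.88%). A log2 fold change of -1 or less was seen in 10 genes (5.87% of all genes) and one of 1 or more in 1 gene, MYH11 (6.87%). Calls depended on the tool: DESeq2 called 12 of these genes lower (1.39% of all genes) and 0 higher (0.442%). Without the low-count filter edgeR called 17 lower (1.75%) and 0 higher (0.979%). With the joined libraries added as if they were separate clones, edgeR called 15 lower (2.36%) and 0 higher (0.823%). With a block that pairs the similarly named 44a and 44b, and 4.72 with 3.11, it called 1 lower, CRIP2 (0.0305%); the labels give no such pairing. Limma called 0 with voom and 0 on log2(TPM + 0.1), where 0.00711% of all genes were called higher. ACTN1, CALD1, CNN2, CRIP2, CSRP1, DSTN, LMCD1 and TLN1, 8 genes, were called by DESeq2, without the filter and with the joined libraries. These settings share the same clones, and the share of all genes called under all of them together was not counted.

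**Figure D1:**
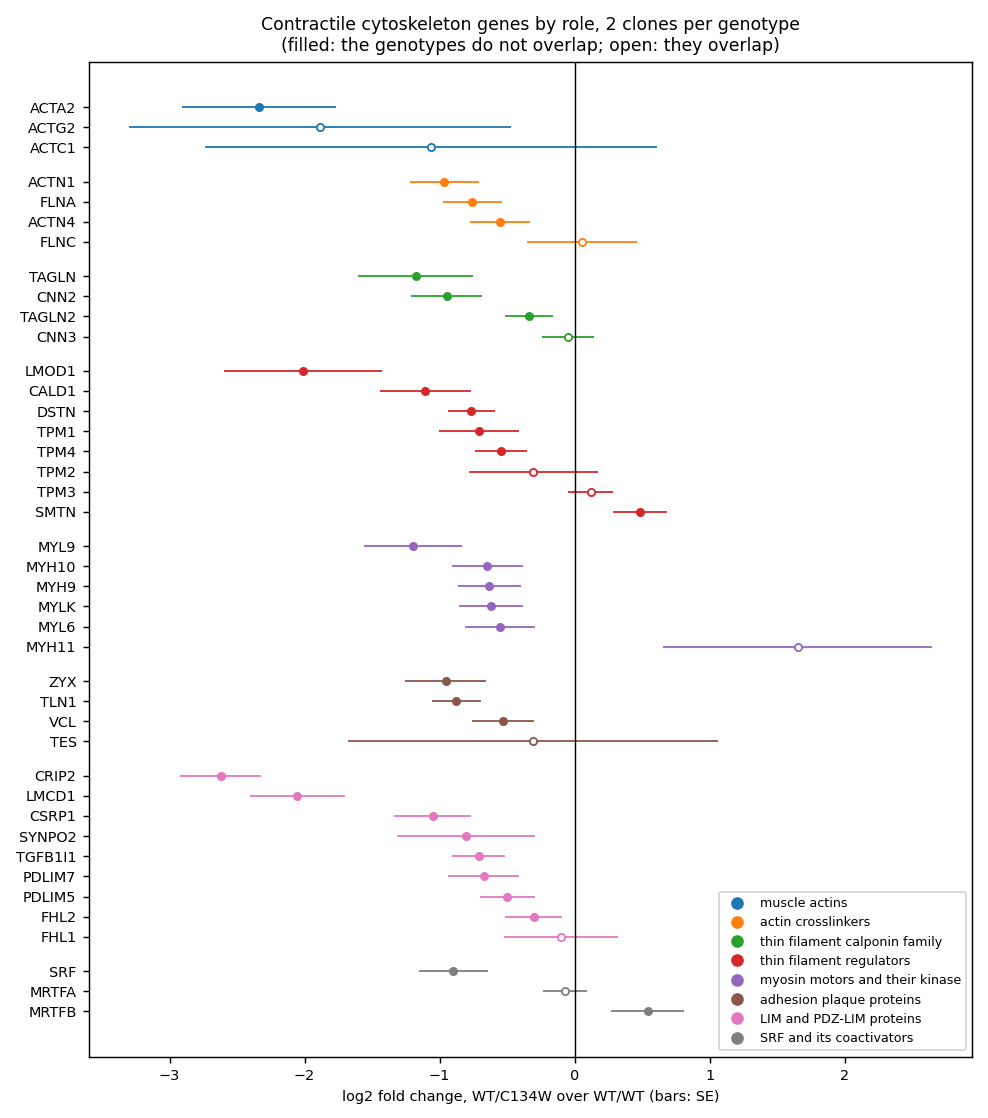
Log2 fold change of the 41 tested genes (horizontal axis, WT/C134W over WT/WT; bars are the SE derived from edgeR's F value) by role, with 2 clones per genotype. Of the 41 points, 36 lie left of 0, and filled points mark the 31 genes whose genotypes do not overlap.

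Among the muscle actins, ACTA2 had the highest TPM in each library. ACTA2 (ENSG00000107796, chromosome 10, 88935074 to 88991339 on the minus strand, GRCh38), which encodes smooth muscle alpha-actin, reached 2747 and 6078 CPM in the reverted clones 44a and 4.72. The mutant clones 3.11 and 44b reached 538 and 1210 CPM, and the joined libraries 4717 CPM for WT/WT and 999 CPM for WT/C134W. The genotypes did not overlap, although the 2 clones of each genotype were themselves 2.21-fold (4.72 over 44a) and 2.25-fold (44b over 3.11) apart. The log2 fold change was -2.34 ± 0.57 (SE), a 5.05-fold lower level, with an edgeR adjusted p of 0.593. Leaving out single clones moved it between -3.05 and -1.65. ACTG2 (chromosome 2, 73892314 to 73919865, plus strand), the gamma-actin of smooth muscle, was high in 4.72 alone among the clones. Its level was 22.0 CPM in 44a, 352 CPM in 4.72, 44.9 CPM in 3.11 and 56.4 CPM in 44b, so the genotypes overlapped, and 223 and 49.7 CPM in the joined libraries. ACTC1, the cardiac alpha-actin, had 2.97 and 23.7 CPM against 0.702 and 12.1 CPM, again with an overlap, and 18.1 and 6.89 CPM in the joined libraries. The log2 fold changes, -1.89 ± 1.41 for ACTG2 and -1.06 ± 1.68 for ACTC1, turned to 1.2 and 1.11 without 4.72. The muscle actins are closely related genes, and RSEM shares out reads that match several genes. The split among these 3 may therefore be less certain than their sum. The same may hold for the tropomyosins, and how many reads were shared was not measured.

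The sum was also lower against the cytoplasmic actins. ACTA2, ACTG2 and ACTC1 together made up 12.9% and 23.5% of all actin TPM in 44a and 4.72, and 5.17% and 8.69% in 3.11 and 44b. In the joined libraries the share was 21.4% (WT/WT) and 7.6% (WT/C134W). ACTB, the cytoplasmic beta-actin, had 16380 and 15760 CPM against 8669 and 10460 CPM, a log2 fold change of -0.75 ± 0.23 (adjusted p = 0.633, edgeR). ACTB was called by DESeq2 with an adjusted p of 0.00242. Among tropomyosins, TPM1 took 48.3% (44a) and 58.3% (4.72) of the family's TPM against 42.4% (3.11) and 51.3% (44b), which overlap, while TPM3 took 8.56% and 6.75% against 14.9% and 11.2%, which do not. The non-muscle myosin heavy chain MYH9 held at least 97.5% of the TPM of MYH9, MYH10 and MYH11 in each library.

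**Figure D2:**
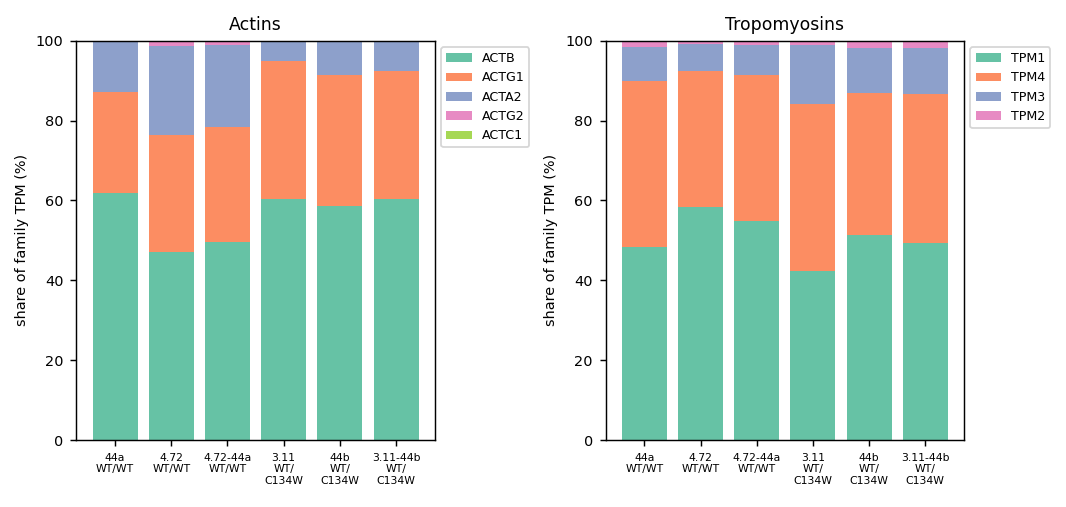
Share of the summed TPM of each family (vertical axis, percent) taken by each actin and tropomyosin gene in the 6 libraries. ACTA2 takes 12.8% and 22.3% of actin TPM in 44a and 4.72, and 4.83% and 8.32% in 3.11 and 44b.

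Most genes for proteins that decorate the thin filament had lower values in both mutant clones (19.7% of all genes did). These were 3 of the 4 tested calponins and transgelins and 5 of the 8 thin filament regulators. TAGLN (transgelin, chromosome 11, 117199321 to 117204782, plus strand) had 3323 and 3461 CPM in 44a and 4.72, and 881 and 2118 CPM in 3.11 and 44b, with 3246 and 1757 CPM in the joined WT/WT and WT/C134W libraries. The reverted clones were within 1.04-fold of each other and the mutant clones 2.40-fold apart. Its log2 fold change was -1.18 ± 0.43 (adjusted p = 0.649, edgeR), while its paralog TAGLN2 stood at -0.34 ± 0.18. With CNN1 at 0, the calponins present were CNN2 and CNN3, which bind actin in many non-muscle cells. CNN2 had 573 and 594 CPM against 230.0 and 375 CPM, a log2 fold change of -0.95 ± 0.26, whereas CNN3 had 503 and 432 CPM against 403 and 502 CPM, an overlap. Leiomodin 1 (LMOD1, chromosome 1, 201896452 to 201946588, minus strand), an actin nucleator typical of smooth muscle, had 106 and 233 CPM against 25.7 and 58.2 CPM (joined libraries 179 and 52.8 CPM). Its log2 fold change of -2.01 ± 0.59 and its clone gaps of 2.21-fold and 2.26-fold resembled those of ACTA2. Caldesmon (CALD1, chromosome 7, 134744252 to 134970728, plus strand) had 3642 and 4637 CPM against 1366 and 2486 CPM (joined libraries 4464 and 2185 CPM), a log2 fold change of -1.10 ± 0.34. Of the 8 thin filament regulators, 6 had a negative value. Destrin (DSTN), which severs and depolymerises actin, was at -0.77 ± 0.17, TPM1 at -0.71 ± 0.29 and TPM4 at -0.55 ± 0.19. TPM2 (-0.30) and TPM3 (0.12) overlapped between genotypes. SMTN (smoothelin) was the exception without overlap, with 99.0 and 71.8 CPM against 115 and 124 CPM, a log2 fold change of 0.48 ± 0.20.

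**Figure D3:**
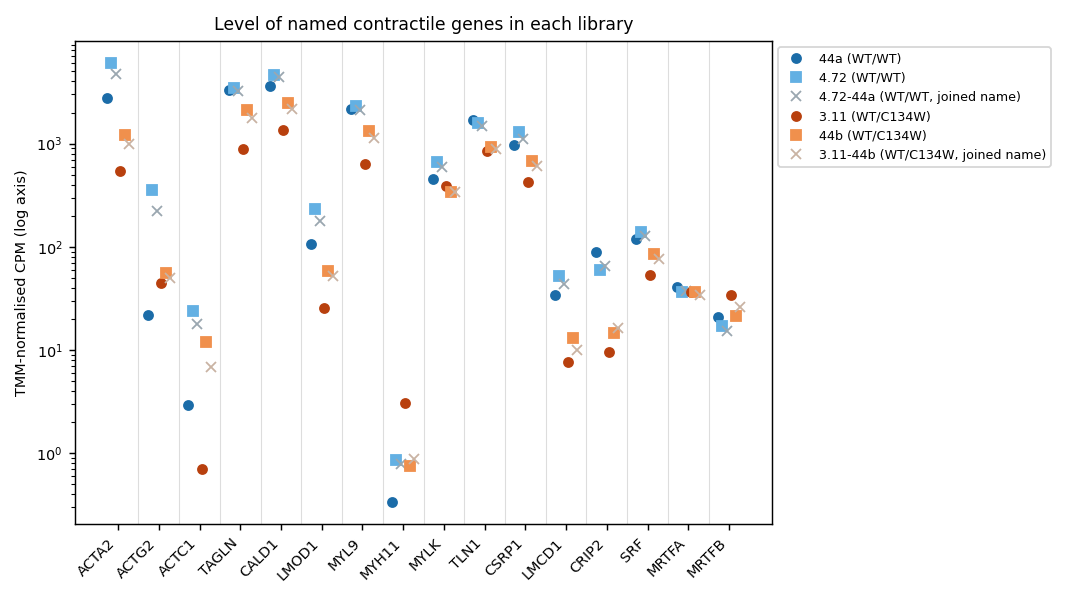
TMM-normalised CPM (log axis) of 16 contractile genes in each of the 6 libraries, 1 marker per library, with crosses for the libraries of joined name. ACTA2, LMOD1, LMCD1 and CRIP2 show both WT/C134W clones below both WT/WT clones, while ACTG2, ACTC1, MYH11 and MRTFA overlap.

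Of the 5 myosin II genes, 4 had lower CPM in both mutant clones (19.7% of all genes did), and MYH11 overlapped. The regulatory light chain gene MYL9 (chromosome 20, 36541484 to 36551447, plus strand) had 2141 and 2323 CPM in 44a and 4.72 against 637 and 1314 CPM in 3.11 and 44b, and 2101 and 1133 CPM in the joined libraries. Its log2 fold change was -1.19 ± 0.36 (adjusted p = 0.633, edgeR), and as for TAGLN the mutant clones were further apart (2.06-fold) than the reverted ones. The essential light chain MYL6, the contractile gene of highest TPM in 5 of the 6 libraries, had a log2 fold change of -0.55 ± 0.26. MYH9 and MYH10, the non-muscle heavy chains, were at -0.63 ± 0.23 and -0.65 ± 0.26, and NDEL1, on the strand opposite to MYH10, stood at up to 335% of the MYH10 level. On the TPM scale MYH10 overlapped, with 12.9 and 15.5 TPM against 15.8 and 8.95 TPM, and its log2 fold change in limma on log2(TPM + 1) was -0.23. MYH11, the smooth muscle heavy chain, was close to the detection limit, with 15 and 35 expected counts in 44a and 4.72 and 126 and 34 in 3.11 and 44b (0.340, 0.863, 3.05 and 0.750 CPM). The joined libraries had 31 and 34, or 0.795 and 0.888 CPM. These values overlap, and NDE1 lies on the opposite strand of MYH11 at 42.7 to 76.1 CPM, so the few counts are uncertain. The library kit keeps strand, but the strand setting of the counting is not stated. MYLK (chromosome 3, 123610049 to 123884331, minus strand), the light chain kinase, had 456 and 667 CPM against 391 and 341 CPM (joined libraries 596 and 337 CPM), a log2 fold change of -0.62 ± 0.23.

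Another column of the tables, the gene length that RSEM weights by transcript abundance, differed between clones for MYLK. It was 3839 bases in 44a, 4117 in 4.72 and 4023 in 44b, but 5770 in 3.11, while the joined libraries had 4522 (WT/WT) and 4419 (WT/C134W). MYLK is known to make long and short kinase forms and a short non-kinase product from inner starts. On the TPM scale 3.11 was the lowest clone, at 108 TPM, against 170 and 227 TPM in the reverted clones and 132 TPM in 44b. MYH10 had a length of 6958 bases in 44a and of 5077, 4866 and 4999 in 4.72, 3.11 and 44b. Over the 4 clones 24 of the 41 genes kept their length within 1.1-fold, and 7 varied by over 1.2-fold, against 41.2% of all genes tested. Both mutant clones had a shorter length in 10 genes and a longer one in 7, against 13.5% and 11.6% of all genes. TLN1, which was longer in both (6402 and 6121 bases against 5611 and 5704), had the largest ratio of mean lengths among those 7 after ACTG2 (1.11 and 1.13). Lengths were not tested.

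**Figure D4:**
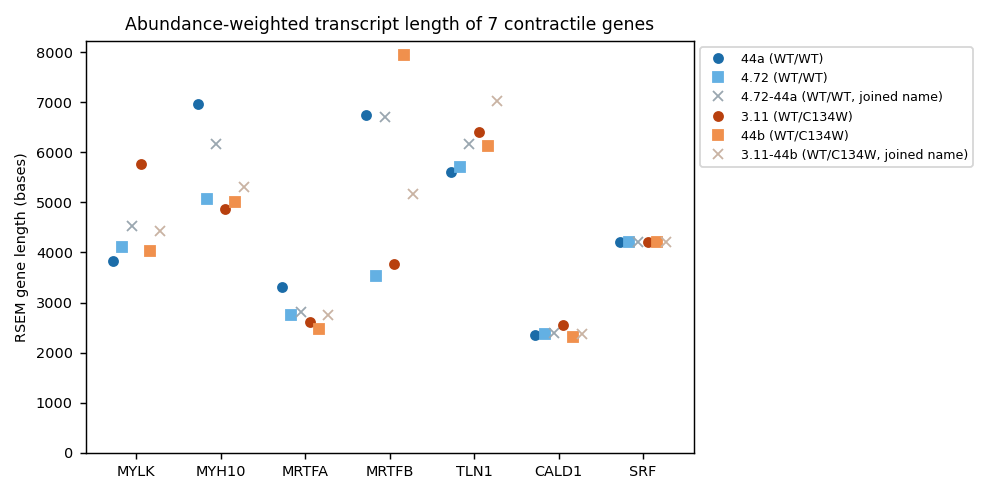
RSEM gene length in bases (vertical axis, from 0), weighted by transcript abundance, for 7 contractile genes in each library. MYLK reaches 5770 bases in 3.11 and lies between 3839 and 4522 elsewhere, and SRF has 1 value throughout.

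In 3 of the 4 adhesion plaque genes both mutant clones had lower values (19.7% of all genes did), and TES was the exception. Talin 1 (TLN1, chromosome 9, 35696948 to 35732395, minus strand), which links integrins to actin, had 1693 and 1580 CPM against 849 and 936 CPM (joined libraries 1482 and 879 CPM). The clones of each genotype were close, and the log2 fold change was -0.88 ± 0.18 (adjusted p = 0.556, edgeR). With any 1 clone left out it stayed between -0.96 and -0.81. Zyxin (ZYX) was at -0.95 ± 0.30 and vinculin (VCL) at -0.53 ± 0.23. Testin (TES), a LIM protein of focal adhesions, followed neither genotype: it had 114 CPM in 44a and 98.1 CPM in 44b, but 22.7 CPM in 4.72 and 12.0 CPM in 3.11. Of the crosslinkers, ACTN1 had 1777 and 2385 CPM against 908 and 1225 CPM (log2 fold change -0.97 ± 0.26) and FLNA 6072 and 7126 CPM against 3641 and 4168 CPM (-0.76 ± 0.22). ACTN4 was at -0.55 ± 0.22. FLNC, the filamin of striated muscle, had 608 and 1009 CPM against 566 and 1113 CPM, with an overlap.

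All 9 genes of the LIM group, which also holds the PDZ protein SYNPO2, had a negative fold change, and in 8 of them both mutant clones had lower CPM than both reverted clones (19.7% of all genes did). On the TPM scale this held for 5 (11.3% of all genes). CRIP2 (cysteine-rich protein 2, chromosome 14, 105472962 to 105480170, plus strand) had the largest difference of all 41 genes. Its levels were 88.4 CPM (44a) and 60.2 CPM (4.72), then 9.63 CPM (3.11) and 14.5 CPM (44b), with 65.7 and 16.4 CPM in the joined libraries, so that every WT/WT library lay above every WT/C134W library. The log2 fold change was -2.62 ± 0.30, a 6.16-fold lower level, with an edgeR adjusted p of 0.439 and a p of rank 6 among all genes. LMCD1 (chromosome 3, 8501707 to 8574673, plus strand), a LIM protein that binds GATA factors, had 33.8 and 52.6 CPM against 7.69 and 13.1 CPM (joined libraries 43.5 and 9.95 CPM), a log2 fold change of -2.05 ± 0.35 (adjusted p = 0.48, edgeR). CSRP1 (chromosome 1, 201483530 to 201509456, minus strand), a LIM protein of actin bundles, had 974 and 1303 CPM against 427 and 672 CPM (joined libraries 1116 and 601 CPM), at -1.05 ± 0.29. The promoters of CRIP2, LMCD1, LMOD1 and CSRP1 held no CArG box and no near match. SYNPO2 (-0.80), TGFB1I1 (-0.71), PDLIM7 (-0.67), PDLIM5 (-0.50) and FHL2 (-0.30) had lower CPM in both mutant clones than in both reverted clones. On the TPM scale SYNPO2 (38.5 and 45.7 against 14.1 and 41.03 TPM), PDLIM5 (100.5 and 137.9 against 100.9 and 112 TPM) and FHL2 (179 and 179.8 against 135.5 and 181.9 TPM) overlapped. FHL1 (-0.10) overlapped, from 39.4 CPM in 44b to 90.7 CPM in 3.11.

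SRF had lower values in both mutant clones, and its coactivators did not. SRF (chromosome 6, 43171299 to 43181507, plus strand) had 119 and 138 CPM in 44a and 4.72 and 52.9 and 85.0 CPM in 3.11 and 44b (joined libraries 128 and 76.9 CPM), a log2 fold change of -0.90 ± 0.26 (adjusted p = 0.595, edgeR). MRTFA had 40.9 and 36.4 CPM against 36.8 and 36.9 CPM (joined libraries 37.6 and 34.0 CPM), a log2 fold change of -0.07 ± 0.16, which was positive on the TPM scale and with library totals alone. SGSM3, on the opposite strand, stood at up to 142% of the MRTFA level. MRTFB had 21.0 and 17.1 CPM against 33.9 and 21.6 CPM (joined libraries 15.4 and 26.1 CPM), a log2 fold change of 0.54 ± 0.27. On the TPM scale MRTFB overlapped between genotypes, with 4.38 and 6.86 TPM against 14.6 and 4.14 TPM. Its RSEM length ran from 3521 bases in 4.72 to 7946 in 44b. Differences between SRF and the coactivators were not tested.

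Clone against clone, the lower values held for each of the 4 pairs. Over the 41 genes the median log2 ratio of (CPM + 0.5) was -0.89 for 3.11 over 44a, -0.42 for 44b over 44a, -0.90 for 3.11 over 4.72 and -0.66 for 44b over 4.72. From 33 to 35 of the 41 genes were lower in the mutant clone of each pair, and the medians of all genes lay between -0.01 and 0.01. The pairs share clones and are not independent. Clones of the same genotype also differed: 33 genes were higher in 44b than in 3.11 (median 0.45), and 28 were higher in 4.72 than in 44a (median 0.12). Of all genes tested, 48.9% were lower in 44b than in 3.11 and 48.4% were lower in 4.72 than in 44a. Of the 41 genes, 26 differed between genotypes by more than either clone gap, 25 of them lower, against 26.7% and 13.3% of all genes tested. In 44b, 8 genes were at least 2-fold above 3.11 (ACTA2, ACTC1, LMOD1, MYL9, SYNPO2, TAGLN, TES and TPM2). Another 2, FHL1 and MYH11, were at least 2-fold below 3.11. In 4.72, 5 genes were at least 2-fold above 44a (ACTA2, ACTC1, ACTG2, LMOD1 and MYH11), and TES stood at 0.20 of its 44a level. Shares of all genes with 2-fold gaps were not counted.

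**Figure D5:**
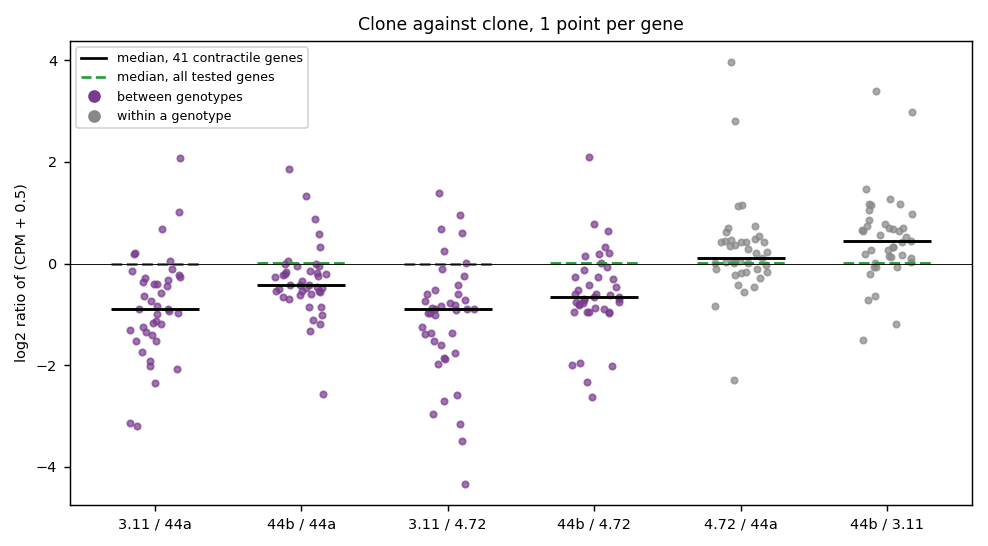
Log2 ratio of (CPM + 0.5) between 2 clones (vertical axis), 1 point per contractile gene, for the 4 pairs between genotypes and the 2 pairs within a genotype. The medians of the 41 genes (solid lines) lie between -0.90 and -0.42 in the pairs between genotypes, and at 0.12 and 0.45 within genotypes.

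The wider pathway was read from a further list. Of 20 known SRF and MRTF targets outside the contractile set, 19 were tested, 0 were called, and 18 had a negative value (49.4% of all genes; median -0.81, against 0.01). At an unadjusted p below 0.05 stood 7 of them, all lower (4.7% of all genes). EGR1, an immediate early factor, had 48.8 and 76.5 CPM against 15.3 and 18.7 CPM, and JUNB 118 and 66.3 CPM against 23.2 and 26.6 CPM. CCN1, a matricellular protein that YAP also drives, had 1654 and 2283 CPM against 547 and 1100.0 CPM. KRT17, the fourth by p, was below 0.5 CPM in both reverted clones and had 0 counts in both mutant clones. DESeq2 called 3 of these targets lower (EGR1, JUNB and CCN1; 1.39% of all genes) and 0 higher (0.442%). With the joined libraries added, edgeR called 2 lower (2.36%), and CCN1 had an adjusted p of 0.0525.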

How the data were processed

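Gene tables of 6 KGN libraries (3 per FOXL2 genotype, groups from the genotype labels) were used. Per the file headers, the authors deposited RSEM's expected count, TPM and FPKM for each gene, and its length weighted by transcript abundance. The expected count is unscaled, TPM is scaled by length and to 1 sum per library by the authors, and FPKM was deposited too and not used. The submitters' processing notes list RSEM 1.3.1 and STAR 2.7.6a beside DESeq2 1.26.0, Picard 2.8.1 and R 3.6.3, with no roles. They also give GRCm38, a mouse assembly, while the 58336 gene IDs are all human Ensembl IDs. The human build was not given in the sources used here, nor was the strand setting. Symbols and coordinates (GRCh38) came from GENCODE release 29, which held 58216 of the IDs. Promoters came from RefSeq (GRCh38.p14).

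Expected counts were rounded. The 4 single-clone libraries were compared with edgeR 4.0.16 (filterByExpr, TMM, robust glmQLFit, glmQLFTest; R 4.3.3). P-values were adjusted over all genes by Benjamini-Hochberg and called at 0.05. Log2 fold changes set WT/C134W over WT/WT, and each SE is the size of the change divided by the square root of edgeR's F. The procedure was also run on simulated counts whose spread was set by hand and not taken from these clones, and the outcome is not given here. Alternatives used DESeq2 1.42.0, limma 3.58.1, other scalings and filters, TPM, all 6 libraries, a block and each clone left out. Values in every library are given for genes with a log2 fold change of size 1 or more and a mean of 10 CPM, for the main markers and SRF factors, and for the 3 smallest p. Others named with values were chosen after their values were seen. The genes and lists were chosen with earlier results of these data known. Another list of pathway genes is not reported here.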

Additional observations from a re-analysis of the deposited data

How the results depend on the processing

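The number of contractile genes called, 0 in the comparison as reported, became 12 with DESeq2, 15 with the joined libraries added, 17 without the low-count filter and 1 (CRIP2, adjusted p = 0.0358) with a replicate block that pairs 44a with 44b and 4.72 with 3.11. All were lower in WT/C134W, and the cause was not tested. Nothing in the labels pairs these clones, and 0.0305% of all genes were called under that block. The count was 0 without each clone in turn, with limma voom, with both other scalings, with the 10 CPM filter and on the TPM scale. Of 38 pathway genes tested outside the set, which include the list not reported here, 0 were called in the comparison as reported and 0 without each clone. With DESeq2 4 were called lower (1.39% of all genes), with the joined libraries 5 (2.36%) and without the filter 7 (1.75%), settings applied to these lists after seeing the data. The median log2 fold change, -0.67, ran from -0.96 (without 44b) to -0.59 (without 3.11) when single clones were left out. It was -0.45 with library totals alone, where the median of all genes was 0.23, and between -0.57 and -0.56 on the TPM scale. Genes with a negative value numbered 33 to 36 under all settings. ACTG2 and ACTC1 changed sign without 4.72, to 1.2 and 1.11 (lowest values -2.82 and -4.26 without another clone). MRTFA changed sign with library totals alone (0.15) and in limma on log2(TPM + 1) (0.34, also unfiltered) and log2(TPM + 0.1) (0.35). Of 237 single-gene values under the alternatives, 204 kept their sign and their side of the threshold, 27 passed it and 6 changed sign. Genes under about 1 CPM, MYH11 above all, are limited by counting.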

Other observations

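The libraries of joined name lay between the 2 clones of their genotype in 29 of the 41 contractile genes for WT/WT and in 34 for WT/C134W, against 49.3% and 49.0% of all genes tested. For ACTA2 the joined libraries had 4717 and 999 CPM, and for TES 47.5 and 75.9 CPM, each between the clones named. The ratio of the 2 joined libraries had a median log2 value of -0.69 over the 41 genes, with 33 lower.

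Of the 43 genes, 30 overlap a gene annotated on the opposite strand, and for 14 of them that gene reached 1 CPM or more in a library. ACTA2-AS1, antisense to ACTA2, had 27.8 and 59.4 CPM in 44a and 4.72 and 7.57 and 10.2 CPM in 3.11 and 44b, at most 1.41% of the level of ACTA2. FAS, on the same opposite strand, had 41.3 and 39.1 CPM against 30.8 and 52.5 CPM, which overlap.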
